A study of Mus musculus with 96 samples.

Results

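Hoxa10, Hoxa11 and Hoxa13 are 3 of the 96 genes assayed by quantitative PCR in 96 single cells of the mouse uterus, and they are described here across all of those cells. Each gene was represented by 1 assay, matched by its name in the deposited table. A gene counted as detected in a cell when its cycle threshold (Ct, the amplification cycle at which signal appears, lower where a cell held more template) was below 28. At least 1 of the 3 genes was detected in 57 of the 96 cells. The cells came from mice at postnatal day 7, and the labels give no strain, sex, treatment or number of animals. Single cells were freed with collagenase, those that bound an antibody to CD326 (the epithelial adhesion protein EpCAM) were sorted 1 to a well, and their RNA was reverse transcribed and preamplified before the PCR. All cells form 1 group with no control, so cells are not replicates of a condition, no test between groups was possible, and exact (Clopper-Pearson) 95% intervals cover counting error only.

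Hox genes encode homeodomain transcription factors, and in many animals the order of the genes along a cluster matches the order of their domains along the body. The Abd-B-like genes at the 5′ end of the mouse HoxA cluster pattern the Müllerian duct, which forms the oviduct, uterus, cervix and upper vagina. As background, Hoxa10 and Hoxa11 are needed for a receptive uterus and are strong in its stroma, whereas Hoxa13 acts in the cervix and vagina at the lower end of the tract. Loss of Hoxa10 shifts part of the uterus towards an oviduct-like form, and loss of Hoxa11 impairs gland formation and implantation.

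The 3 genes are neighbours on the minus strand of chromosome 6. In RefSeq (build GRCm38.p6) Hoxa10 lies at chr6:52231197-52240854, Hoxa11 at chr6:52242105-52245810 and Hoxa13 at chr6:52258853-52260880. Between Hoxa10 and Hoxa11 lie 1250 bases, and between Hoxa11 and Hoxa13 lie 13042 bases. A long noncoding RNA on the opposite strand, Hoxa11os (chr6:52245243-52249769), overlaps 568 bases of Hoxa11, or 15.3% of that gene. The sources used here do not give primer positions, and transcripts of Hoxa11 and Hoxa11os cannot be told apart should the Hoxa11 amplicon lie in the overlap.

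The 150 bases before each annotated start are shown, 5′ to 3′ on the minus strand of GRCm38.p6 and taken from RefSeq. Any link between these bases and the cells in which the genes were detected was not tested. Capitals mark matches to CCAAT.
Hoxa10 outer start, chr6:52240855-52241004: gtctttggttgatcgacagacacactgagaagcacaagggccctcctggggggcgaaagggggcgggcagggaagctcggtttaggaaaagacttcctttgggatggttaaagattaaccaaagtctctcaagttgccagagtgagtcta
Hoxa10 inner start, chr6:52234940-52235089: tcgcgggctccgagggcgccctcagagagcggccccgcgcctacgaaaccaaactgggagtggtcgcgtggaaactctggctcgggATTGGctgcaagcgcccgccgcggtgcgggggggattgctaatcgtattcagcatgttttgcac
Hoxa11, chr6:52245811-52245960: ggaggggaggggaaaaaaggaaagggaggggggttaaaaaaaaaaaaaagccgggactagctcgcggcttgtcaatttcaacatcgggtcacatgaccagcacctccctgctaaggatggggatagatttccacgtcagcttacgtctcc
Hoxa13, chr6:52260881-52261030: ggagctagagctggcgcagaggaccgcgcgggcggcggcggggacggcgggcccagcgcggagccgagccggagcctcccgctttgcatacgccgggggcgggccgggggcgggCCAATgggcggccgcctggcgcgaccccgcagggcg
The windows differed in composition. The Hoxa13 window had a GC content of 82.7% and 25 CpG dinucleotides, a count above that of 98.0% of 32851 mouse promoter windows of the same length. The Hoxa11 window had 6 CpG (51.3% GC) and the windows of the outer and inner Hoxa10 starts had 4 and 17 (52.0% and 65.3% GC), against a median of 4 CpG and 54% GC over all windows. CCAAT, the letters of the NF-Y binding site, was searched on both strands and occurs in 24.5% of all windows. It was found 36 bases before the Hoxa13 start and, on the opposite strand, 64 bases before the inner Hoxa10 start. None of the 4 windows held TATAAA, the posterior Hox core TTTAT or the T-box core AGGTGT, which occur in 7.57%, 24.1% and 6.86% of all windows. These matches describe letters only, and the PCR did not measure which start was used. The inner Hoxa10 window lies between the 2 annotated starts of that gene.

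Some cells stood apart before any result on Hox genes. In 8 cells the Ct of Gapdh, the reference gene of glycolysis, was above 18 or absent. Of these 8 cells, 0 detected Hoxa10, 1 detected Hoxa11 and 1 detected Hoxa13. The latter, cell 67, had no value in the first 71 assays of the table, which include Hoxa10 (51st in order) and Hoxa11 (63rd in order), whereas Hoxa13 (75th in order) was recorded at a Ct of 19.2. Its Hoxa10 and Hoxa11 values are therefore part of a block without any value. Epcam, the gene of the sorted antigen, was detected in 74 of the 96 cells. Over all 96 assays a cell detected a median of 54, with a range of 9 to 78. A missing Ct may mean no transcript or a failed amplification, and these cannot be told apart.

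Hoxa13 was the most widely detected of the 3 genes, followed by Hoxa11 and Hoxa10. The share of Hoxa13 was 37.5% (36 of 96 cells, exact interval 27.8 to 48.0%), that of Hoxa11 30.2% (29 of 96, interval 21.3 to 40.4%) and that of Hoxa10 11.5% (11 of 96, interval 5.86 to 19.6%). The intervals of Hoxa13 and Hoxa11 overlapped, and the interval of Hoxa10 ended below the lower bounds of both. All 3 genes lay in the lower part of the panel, whose median assay was detected in 56.8% of cells. They ranked 62nd, 68th and 86th of the 96 assays by share.

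Hoxa10 had a median Ct of 21.3 where detected, against a median of 19.9 over assays, and ranked 71st from the lowest of 95. Its lowest Ct was 18.8 in cell 81, followed by 19.1 in cell 59 and 20.3 in cell 57. Cells 12, 8, 70 and 44 had a Ct of 20.9, 21.0, 21.3 and 21.9. The later values were 22.2 in cell 10, 22.9 in cell 37, 23.5 in cell 17 and 25.0 in cell 36. The other 85 cells had no Ct for Hoxa10, and no value fell at or above 28. With a Ct limit of 24, 10 of the 11 cells stayed detected. Its mean level, taken as 28 minus Ct on a log2 scale, was 6.46 ± 1.84 (SD, n = 11 cells).

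Hoxa11 had a few cells at early cycles and many nearer the limit. Its Ct ran from 16.4 in cell 57 through a median of 24.8 to 27.9. In 9 cells the Ct was below 22, in 4 it lay from 22 to 24, and in 16 of the 29 detecting cells (55.2%) it lay from 24 to 28. The share of detections from 24 to 28 had a median of 2.04% over the 86 assays found in at least 10 cells, and Hoxa11 ranked 3rd. The SD of its Ct was 3.66 cycles, 2nd among those 86 assays, whose median SD was 2.20. Its mean level was 4.38 ± 3.66 (SD, n = 29 cells). Another 2 cells had a Hoxa11 Ct above the limit, at 28.9 and 29.0, and 65 had none. At a stricter limit of 24, Hoxa11 counted as detected in 13 cells (13.5%).

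Hoxa13 had most of its values below a Ct of 21, with a spread like that of the panel. Of its 36 detecting cells 26 had a Ct between 16.8 and 21, and 7 more lay between 22 and 24. The median Ct was 20.3 (median over assays 19.9), 58th from the lowest of 95 assays. The middle 50% of values spanned 2.82 cycles (median over assays 2.87, Hoxa10 1.92), and the mean level was 7.21 ± 2.20 (SD, n = 36 cells). The latest value inside the limit was 26.2, and 4 cells had a Ct from 28.0 to 28.9 that counted as undetected. With a Ct limit of 24, Hoxa13 was still detected in 33 cells. Primer efficiencies are not given, so levels were not compared between the 3 genes.

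**Figure D1:**
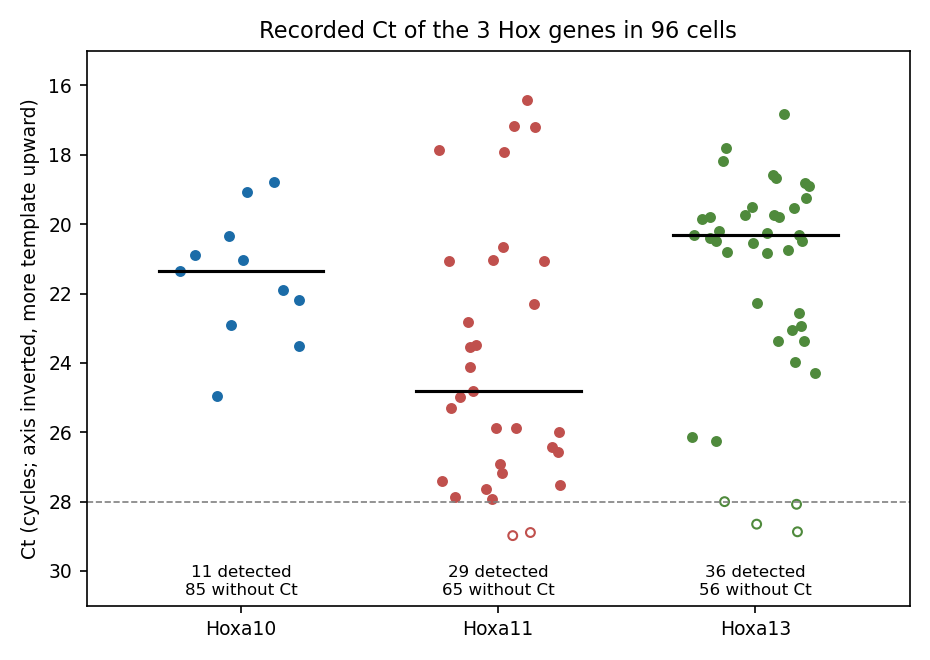
Recorded Ct of Hoxa10, Hoxa11 and Hoxa13 in each cell, on an inverted axis in cycles so that more template is higher. Filled points are detected (Ct below 28, dashed line), open points are recorded later than that, and black bars are medians of detected values (21.3, 24.8 and 20.3). Hoxa11 spreads over the whole range, and Hoxa13 is dense near 20.

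Most cells that carried any of the 3 genes carried 1 of them. Cells without any of the 3 made up 40.6% (39 of 96, interval 30.7 to 51.1%), those with exactly 1 made up 41.7% (40 of 96, interval 31.7 to 52.2%), and those with 2 or 3 made up 17.7% (17 of 96, interval 10.7 to 26.8%). Hoxa13 alone was the most frequent pattern with a gene, in 24 cells. These include cell 67, whose Hoxa10 and Hoxa11 assays lie in its block without any value. Hoxa11 alone was found in 14 cells and Hoxa10 alone in 2, cells 12 and 17. Hoxa11 with Hoxa13 was found in 8 cells, Hoxa10 with Hoxa11 in 5, and Hoxa10 with Hoxa13 but without Hoxa11 in 2, cells 36 and 37. All 3 genes were found together in 2 cells, 44 and 59.

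These 2 cells with the full set differed in level. In cell 59 all 3 genes came early, at a Ct of 19.1 for Hoxa10, 17.9 for Hoxa11 and 18.6 for Hoxa13. In cell 44 Hoxa10 came at 21.9, while Hoxa11 and Hoxa13 came at 25.9 and 26.1. Both cells were rich in detected genes, with 60 and 72 of the other 93 assays.

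**Figure D2:**
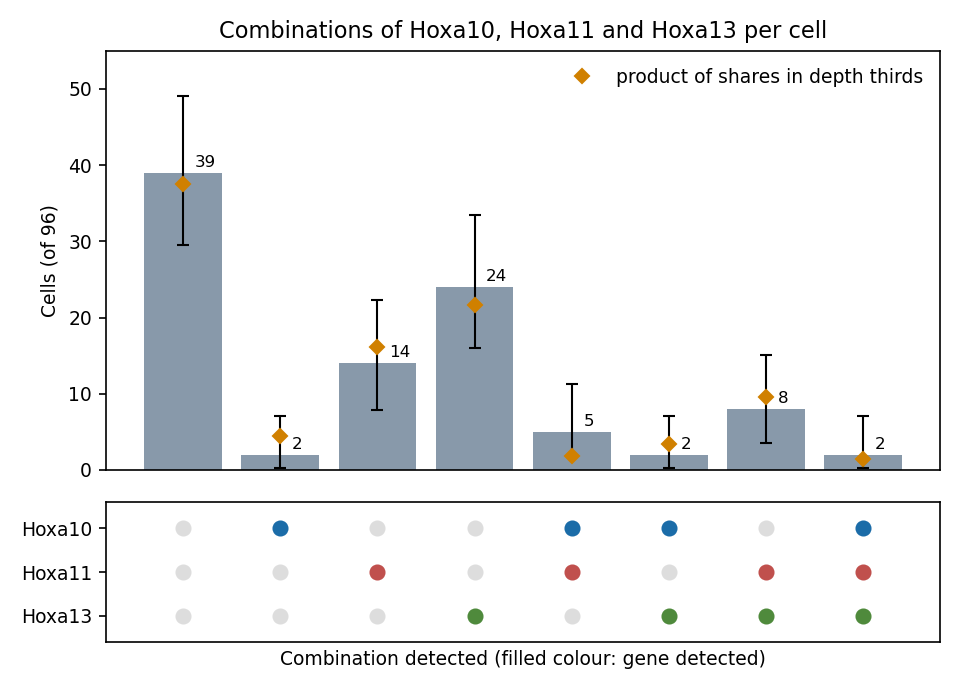
Number of cells, of 96, in each of the 8 combinations of the 3 genes, with exact 95% intervals. Diamonds give the number obtained by multiplying the genes' shares within 3 depth groups of 32 cells. The 5 cells with Hoxa10 and Hoxa11 only compare with 1.83 from the shares, and the 24 cells with Hoxa13 alone, cell 67 among them, with 21.6.

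Hoxa10 and Hoxa11 were found together more often than the product of their shares gave. Of the 11 cells with Hoxa10, 7 detected Hoxa11 (63.6%, interval 30.8 to 89.1%). Of the 85 cells without Hoxa10, 22 did (25.9%, interval 17.0 to 36.5%), and the 2 intervals overlapped. Multiplying the shares within the 3 depth groups gave 3.22 cells with both, so that the 7 observed were 2.17 times that number. Read from the other gene, these 7 cells were 24.1% of the 29 cells with Hoxa11. The 2 pairs with Hoxa13 lay close to the product of the shares. Hoxa10 and Hoxa13 were found together in 4 cells against 4.75, and Hoxa11 and Hoxa13 in 10 cells against 11.0. Hoxa13 was detected in 36.4% of cells with Hoxa10 and 37.6% of cells without it. The product of shares is arithmetic over 96 cells of 1 sample, and no chance range was drawn around it. With a Ct limit of 24, Hoxa10 and Hoxa11 were found together in 6 cells against 1.56, and in the 74 cells with Epcam in 4 against 2.19. Among the 63 cells that detected each of Gapdh, actin and Hprt, 6 had Hoxa10. There the pair was found together in 3 cells against 1.71.

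Cells with both Hoxa10 and Hoxa11 also held the earliest Hoxa11 values. In the 7 cells with Hoxa10 the Ct of Hoxa11 had a median of 17.9 and ran from 16.4 to 25.9. In the 22 cells with Hoxa11 but no Hoxa10 its median was 25.6, with a range of 17.2 to 27.9. The 2 ranges overlapped, but 4 of the 5 lowest Hoxa11 values were in cells with Hoxa10. Within the 7 shared cells the Ct values of Hoxa10 and Hoxa11 had a Spearman rho of 0.57 and a Pearson r of 0.68. Without the 2 cells farthest from the median Hoxa10 Ct, r was 0.81 over the few cells left. For Hoxa11 and Hoxa13 in their 10 shared cells rho was 0.44 and r 0.45 (0.62 without 2 cells). Values of a cell share its amount of RNA and its preamplification, so these are descriptions, and no p is given. For Hoxa13 the median Ct was 20.4 in the 10 cells with Hoxa11 and 20.3 in the 26 without. It was 23.0 in the 4 cells with Hoxa10 (18.6 to 26.2) and 20.3 in the 32 without (16.8 to 24.3), so the ranges overlapped.

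Depth of a cell, counted as the number of the other 93 assays detected, moved with the 3 genes unequally. Cells were put in 3 groups of 32 by depth (9 to 48, 48 to 56 and 57 to 77 assays, ties placed in order of cell number). Hoxa13 was detected in 25.0%, 37.5% and 50.0% of them. Hoxa10 was detected in 6.25%, 6.25% and 21.9%, which is 2, 2 and 7 cells. Hoxa11 was detected in 25.0%, 37.5% and 28.1%, while the median over the other assays went from 31.2% through 59.4% to 81.2%. Cells with Hoxa10 detected a median of 58 other assays, with a lowest of 46, and cells without it a median of 53. For Hoxa11 the median was 53 with and without the gene. The Ct of Hoxa11 followed that of Gapdh weakly (rho = 0.34, r = 0.36 over 29 cells), as did that of Hoxa13 (rho = 0.32, r = 0.22 over 35 cells, r = 0.07 without 2 cells). For Hoxa10 rho was -0.04 and r -0.07 over 11 cells, and r was 0.41 without 2 cells. The 2 cells left out were each time those farthest from the median Gapdh Ct. The median Ct of Gapdh was 11.4 in cells with Hoxa10 and 13.45 in cells without it.

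**Figure D3:**
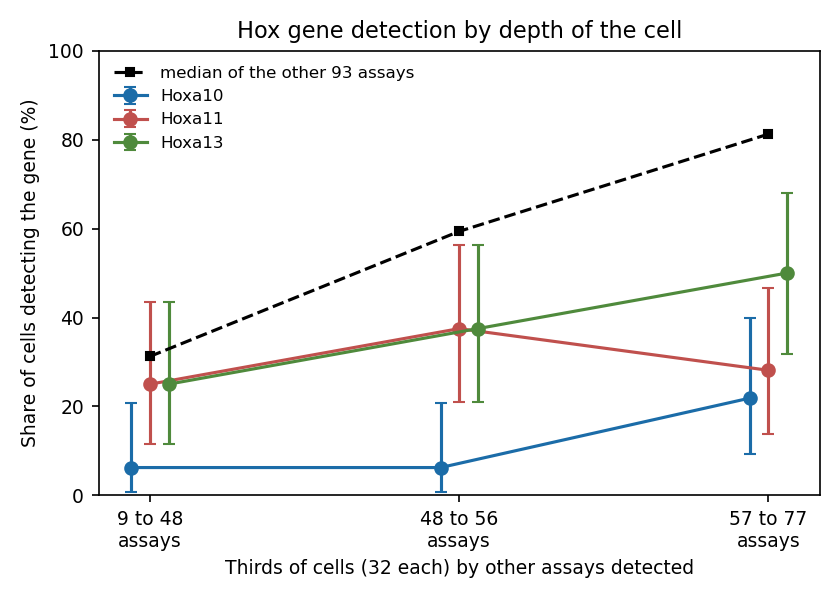
Share of cells, in percent, that detected each Hox gene in 3 groups of 32 cells ordered by the number of other assays detected, with exact 95% intervals. The dashed line is the median share of the other 93 assays, which reaches 81.2% in the deepest group, where Hoxa13 is at 50.0%, Hoxa11 at 28.1% and Hoxa10 at 21.9%.

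To see which genes accompanied each Hox gene, the share of cells detecting another assay was compared between cells with and without the Hox gene. This was done within 3 depth groups, formed anew for each assay with that assay left out of the depth count. The differences were averaged with weights for the cells that had the Hox gene. The comparison covered the 75 other assays found in 10 to 90% of cells, and a difference of 20 percentage points was taken as large. Hoxa10 had 12 assays at least 20 points higher (16%) and 9 at least 20 points lower (12%), 28% in either direction. Hoxa11 had 4 higher (5.33%) and 3 lower (4%), 9.33% in either direction, and Hoxa13 had 2 higher (2.67%) and 0 lower (0%). Each of the 11 cells with Hoxa10 is 9.09% of them, and counts of assays for the 3 genes are not comparable at unequal numbers of cells. A 2nd rule, which took no account of depth, asked that the exact intervals of the 2 plain shares do not overlap. By it, 3 assays passed for Hoxa10 (4%), 1 for Hoxa11 (1.33%) and 1 for Hoxa13 (1.33%).

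The gene of the T-box factor TBX3 had the largest positive difference of the 75 assays for both Hoxa10 and Hoxa11. Tbx3 was detected in 7 of the 11 cells with Hoxa10 (63.6%, interval 30.8 to 89.1%) and in 15 of 85 without (17.6%, interval 10.2 to 27.4%), a difference of 42.9 points after depth was taken into account. It was detected in 14 of the 29 cells with Hoxa11 (48.3%, interval 29.4 to 67.5%) and in 8 of 67 without (11.9%, interval 5.30 to 22.2%), a difference of 36.4 points. In neither comparison did the intervals overlap. The 2 comparisons share cells. Tbx3 was detected in all 5 cells with Hoxa10 and Hoxa11 only and in 1 of the 2 with all 3 genes. Without Hoxa11, it was detected in 1 of the 2 cells with Hoxa10 alone and 0 of the 2 with Hoxa10 and Hoxa13. Without Hoxa10, it was detected in 4 of the 14 cells with Hoxa11 alone and 4 of the 8 with Hoxa11 and Hoxa13. For Hoxa13 the difference was -1.11 points, with Tbx3 in 9 of 36 cells against 13 of 60. Leaving out any single cell kept the Tbx3 difference between 38.6 and 49.6 points for Hoxa10 and between 34.5 and 38.4 for Hoxa11. In the 74 cells with Epcam the differences were 37.5 and 24.3 points, and among the 63 cells that detected each of Gapdh, actin and Hprt they were 30.6 and 22.4 points.

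Cells with early and late Hoxa11 differed in the genes found beside it. All 9 cells with a Hoxa11 Ct below 22, a boundary chosen after the values were seen, detected Tbx3, at a Ct of 15.5 to 21.7. Among the 16 cells with a Hoxa11 Ct from 24 to 28, 3 detected Tbx3. Of the same 9 cells 6 detected Eng, which encodes the TGF-beta co-receptor endoglin of endothelial and stromal cells, against 1 of the 16. Hoxa10 was found in 5 of the 9 and in 1 of the 16. Wnt7a, which encodes a WNT ligand made by uterine epithelium, was present in 1 of the 9, cell 69, at a Ct of 27.9, and in 8 of the 16. Pax2, a paired-box gene of the duct epithelium, was found in 0 of the 9 and 7 of the 16. Epcam was found in 4 of the 9, at a Ct of 21.4 in cell 70 and 24.3 to 24.6 in cells 59, 69 and 93, and in 13 of the 16. Krt18, a keratin gene of simple epithelium, was detected in all 25 of these cells, at a median Ct of 18.9 in the 9 and 14.8 in the 16. The basal keratin gene Krt15 was found in 7 of the 9 and 10 of the 16. The hormone receptor genes Esr1 and Pgr were found in 9 and 8 of the 9, and in 10 and 10 of the 16. The homeobox gene Emx2 was found in 5 of the 9 and 5 of the 16. The median depth of the 2 sets was 54 and 48.5 other assays, and their median Gapdh Ct was 12.4 and 13.6. The part of these in the differences was not tested.

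**Figure D4:**
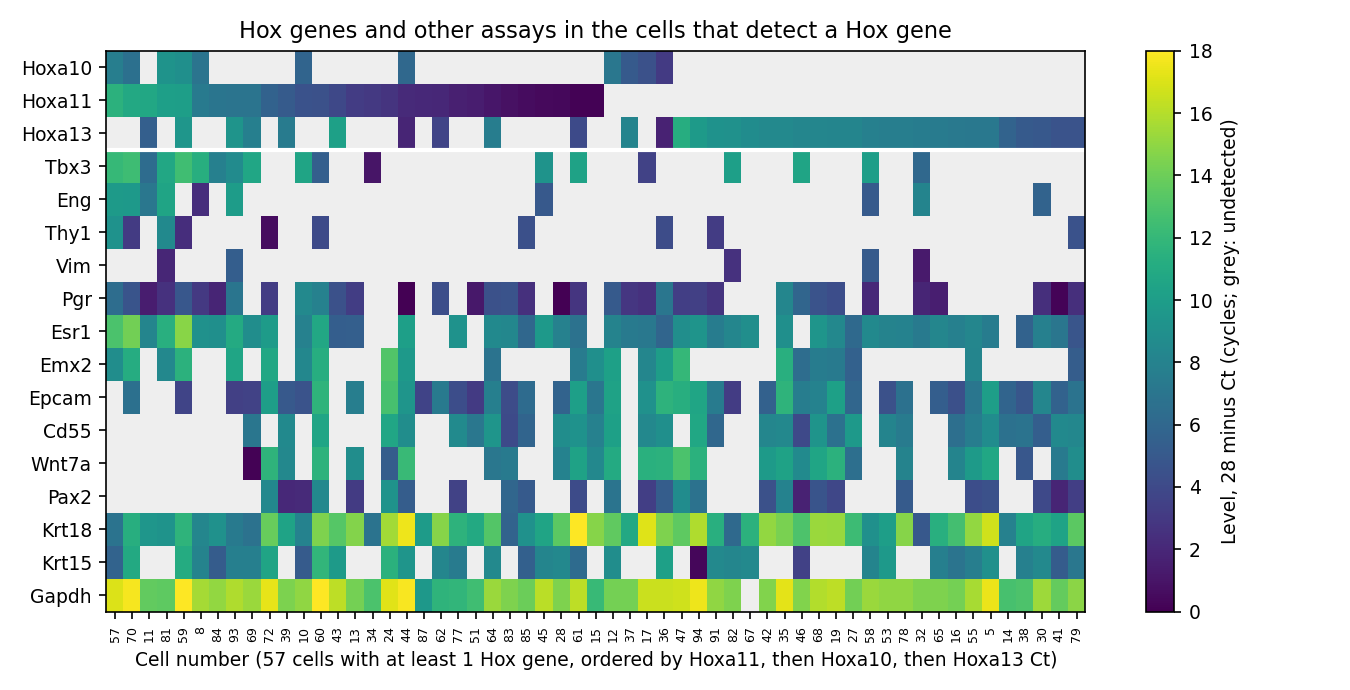
Level (28 minus Ct, in cycles, colour; grey is undetected) of the 3 Hox genes and 14 other assays in the 57 cells with at least 1 Hox gene, each column a cell given by number. Columns run from the earliest to the latest Hoxa11 Ct and then by Hoxa10 and Hoxa13. The 9 columns at the left, with a Hoxa11 Ct below 22, all have Tbx3, and 1 of them has Wnt7a.

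Besides Tbx3, the progesterone receptor and Emx2 were more often detected in cells with Hoxa10. Pgr, the progesterone receptor gene, was detected in all 11 cells with Hoxa10 (interval 71.5 to 100%) and in 44 of the 85 without (51.8%, interval 40.7 to 62.7%), a difference of 36.5 points. Its Ct in the 11 cells ran from 19.5 to 27.96 with a median of 23.3, against a median of 25.0 in the 44. Gapdh was also earlier beside Hoxa10, at a median Ct of 11.4 against 13.45 in cells without Hoxa10. The Ct of Pgr was not scaled to Gapdh. With a Ct limit of 24 the Pgr difference was 20.6 points. Esr1, the estrogen receptor alpha gene, was also found in all 11, and in 63 of the 85 (19.2 points). Emx2 is a homeobox gene that Hoxa10 is known to repress in the endometrium. It was detected in 9 of the 11 (81.8%, interval 48.2 to 97.7%) and in 31 of the 85 (36.5%, interval 26.3 to 47.6%). Its plain difference was 45.3 points, and the one within depth groups 26.2. The intervals of Pgr, Emx2 and Tbx3 did not overlap between the 2 sets of cells. The 5 assays with the largest difference were Tbx3, Hoxa11 at 40.6 points, Pgr, Eng at 29.0 points (4 of 11 against 9 of 85) and the transcription factor gene Sox2 at 28.8 points (6 of 11 against 20 of 85). In the cells with Epcam the Eng difference was 9.34 points.

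The 3 lowest assays for Hoxa10 were Cd55, Wnt7a and Hprt. Cd55, a complement regulator gene, was detected in 4 of the 11 and 57 of the 85, a difference of -40.8 points. Wnt7a was detected in 4 of the 11 and 48 of the 85 (-35.4 points), and those 4 cells were 12, 17, 36 and 44. Cd55 and Wnt7a were each found in 0 of the 5 cells with Hoxa10 and Hoxa11 only and 1 of the 2 with all 3 genes. Without Hoxa11, each was found in 2 of the 2 cells with Hoxa10 alone and 1 of the 2 with Hoxa10 and Hoxa13. Hprt, a purine salvage gene used as a reference, was detected in 6 of the 11 and 58 of the 85 (-27.2 points). Among the 63 cells that detected each of the 3 reference assays, the differences for Cd55 and Wnt7a were -22.0 and -24.1 points. Without depth groups the Wnt7a difference was -20.1 points and that of Hprt -13.7, and in the cells with Epcam that of Hprt was -19.0 points.

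Cells with Hoxa11 had more frequent detection of Pgr, Mst1r and Il17ra and less frequent detection of Cd55. Mst1r, the receptor tyrosine kinase for macrophage-stimulating protein, was detected in 13 of 29 against 13 of 67 cells (23.9 points), Pgr in 21 of 29 against 34 of 67 (21.5 points) and Il17ra, an interleukin receptor gene, in 19 of 29 against 29 of 67 (20.9 points). Hoxa10 itself was next, at 18.9 points. At the low end stood Cd55 (13 of 29 against 48 of 67, -29.5 points), the histone assay h2b (9 of 29 against 35 of 67, -21.9 points) and Itga6, an integrin gene of the basal cell surface (17 of 29 against 51 of 67, -20.2 points). Of these, Pgr, Il17ra and Itga6 fell inside 20 points when a single cell was left out, reaching 18.5, 17.4 and -17.4. In the cells with Epcam Mst1r, Il17ra and Itga6 stood at 12.9, 18.9 and -6.83 points, and with any recorded Ct Pgr stood at 15.7 points. Among the 63 cells with each reference assay the h2b difference turned to 0.654. With a Ct limit of 24, which keeps 13 Hoxa11 cells, 24 of 73 assays passed 20 points in place of 7 of 75, with Tbx3, Mst1r, Cd55 and Il17ra at 75.2, 51.5, -59.5 and 12.8 points.

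For Hoxa13 the highest assays were sma and Sall4; how its differences compare with those of Hoxa10 and Hoxa11 was not tested. The assay sma, read as smooth muscle actin, was detected in 32 of the 36 cells with Hoxa13 and 38 of the 60 without, a difference of 25.2 points that fell to 17.8 when any recorded Ct counted. Sall4, a zinc finger gene of pluripotent cells, followed at 20.6 points (27 of 36 against 30 of 60), the WNT receptor gene Fzd4 at 19.3 points, and the integrin genes Itga3 and Itga6 at 18.9 and 18.5 points. Itga6 was detected in 32 of the 36 (88.9%, interval 73.9 to 96.9%) and 36 of the 60 (60.0%, interval 46.5 to 72.4%), the 1 assay with intervals that did not overlap, its plain difference being 28.9 points and the one within depth groups 18.5. Emx2 was lowest at -19.4 points, with Aldh1a1 (2 of 36 against 12 of 60, -19.3 points) and the aminopeptidase gene Anpep (-16.0 points) next. Without the depth groups the Emx2 difference was -4.44 points. The Sall4 difference fell to as low as 18.7 points when 1 cell was left out and to 16.2 points without the 8 cells of low Gapdh.

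**Figure D5:**
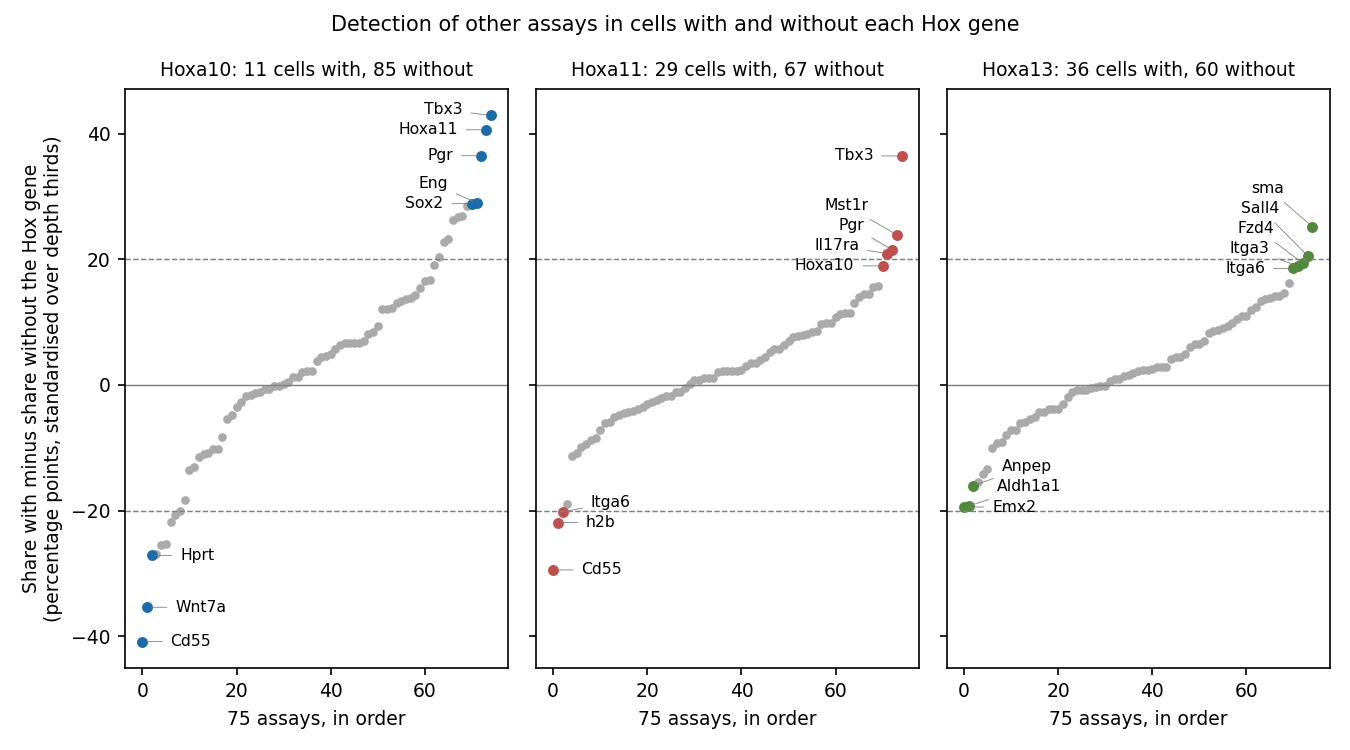
Difference in the share of cells detecting each of 75 assays between cells with and without Hoxa10, Hoxa11 or Hoxa13, in percentage points averaged over 3 depth groups, with assays in order of the difference. Coloured, named points are the 5 highest and 3 lowest per gene, and dashed lines mark 20 points. Tbx3 is highest for Hoxa10 (42.9) and Hoxa11 (36.4), and Cd55 is lowest for both (-40.8 and -29.5).

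Gene lists for cell types and pathways, with the Hox genes left out, gave small counts. Over all 75 assays, 28% passed 20 points for Hoxa10, 9.33% for Hoxa11 and 2.67% for Hoxa13. Of the 8 measured genes of stroma and smooth muscle, 7 lay in the 10 to 90% band. For Hoxa10, Tbx3, Eng and Thy1, the last a surface glycoprotein gene of fibroblasts (5 of 11 against 12 of 85, 28.5 points), were at least 20 points higher and Mcam was lower (-20.7 points), with a list median of -1.70 against 3.76 over all 75 assays. For Hoxa11 1 of the 7 was higher, Tbx3, and the list median was 8.17 against 2.19. For Hoxa13 1 of the 7 was higher, sma, and the median was -1.11 against 2.22. Vim, the intermediate filament gene of mesenchyme, lay outside the band and was detected in 1 of 11, 2 of 29 and 4 of 36 cells with Hoxa10, Hoxa11 and Hoxa13. The summed level of the 8 stromal genes ranged from 17.0 to 51.8 in cells with Hoxa10 (median 39.6) and from 0 to 64.1 in cells without (median 27.6). It had a median of 29.8 with Hoxa11 and 27.1 without, and of 29.1 with Hoxa13 and 26.8 without. The median sums of the epithelial, immune and endothelial lists were also higher with Hoxa10 than without. They were 59.5 against 55.8, 17.6 against 8.34 and 19.6 against 14.8. The sums were not adjusted for depth. The part of these markers in the Hox results was not tested.

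Of the 6 epithelial genes, 2 lay in the band, Epcam and Cdh1, with a median of -18.1 points for Hoxa10, -6.32 for Hoxa11 and 0.313 for Hoxa13. Krt18 and Krt19, found in 94.8% and 96.9% of all cells, were detected in every cell with Hoxa10, Hoxa11 or Hoxa13. Epcam was detected in 7 of 11 cells with Hoxa10 (-25.5 points), 21 of 29 with Hoxa11 (-8.74 points) and 30 of 36 with Hoxa13 (4.51 points), and Cdh1, the E-cadherin gene, in 9 of 11 (-10.8 points), 25 of 29 (-3.91 points) and 32 of 36 (-3.89 points). Krt8, another keratin gene of simple epithelium, was found in 9 of 11 cells with Hoxa10 and 78 of 85 without (-13.9 points). Of the 4 genes of the gland list, 3 lay in the band, with a median of -20.1 points for Hoxa10, -3.10 for Hoxa11 and -10.0 for Hoxa13. Of these, Sox9 was found in 3 of 11 cells with Hoxa10 (-26.9 points), Aldh1a1 in 0 of 11 (-20.1 points) and Prom1, a membrane glycoprotein gene, in 6 of 11 against 32 of 85 (2.18 points). Foxa2, a forkhead gene needed for glands, lay outside the band and was found in 0 of 11, 3 of 29 and 2 of 36. Trp63, a regulator of squamous epithelium such as that of the vagina, was found in 1 of 11, 1 of 29 and 2 of 36. Krt15, a basal keratin gene, was found in 24 of 36 cells with Hoxa13 against 32 of 60 without (2.30 points). Of 2 immune genes, Cd40 was found in all 11 cells with Hoxa10 and 57 of 85 without (26.7 points), and Ptprc in 9 of 11 and 48 of 85 (12.0 points).

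Of the duct patterning list, 5 of 12 genes were measured and 4 lay in the band. Emx2 was higher and Wnt7a lower by over 20 points for Hoxa10, and 0 of the 4 passed 20 points for Hoxa11 or Hoxa13. The shares over all 75 assays were 28% for Hoxa10, 9.33% for Hoxa11 and 2.67% for Hoxa13. Wnt7a was found in 12 of 29 cells with Hoxa11 against 40 of 67 (-18.9 points) and in 21 of 36 with Hoxa13 against 31 of 60 (-3.01 points). Lhx1, a homeobox gene of the forming duct found in 6 cells in all, was detected in 3 of 11 cells with Hoxa10. None of the 8 genes of the beta-catenin WNT list in the band passed 20 points for any of the 3 Hox genes. The counts of these short lists were not tested against the shares over all 75 assays. Itgb3, an integrin gene reported as a target of HOXA10 in endometrium, was found in 2 of 11 cells with Hoxa10 and 10 of 85 without (6.30 points). Mki67, a gene of cycling cells, was found in 6 of 11 and 23 of 85 (23.2 points). Where detected, the median Ct was 27.2 for Lhx1 and 26.2 for Mki67, near the limit of 28. The median Ct of Gapdh was 11.4 with Hoxa10 and 13.45 without it, and its part in these counts was not tested. The 24 cells with Hoxa13 alone (cell 67 among them) and the 33 with Hoxa10 or Hoxa11 had Epcam in 21 and 24 cells. They had Tbx3 in 4 and 15, and Wnt7a in 15 each.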

How the data were processed

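The values are raw Ct from quantitative PCR with the dye EvaGreen on a 96 by 96 Fluidigm Biomark chip, per the labels' protocols. The deposited Ct table holds no normalization, per the file headers, and 40 (4320 of 9216 values) stands for no Ct. Such values fit none of the usual unit classes, and were used as other values as deposited. A 2nd deposited table gives each value as a fold (a ratio) against a reference gene and cell 1. For the 3 Hox assays it followed from the Ct table to within 9.53e-07 on the log2 scale and was not used further. The sources used here do not give threshold settings, quality filters or primers.

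Detection was a Ct below 28, and the level was 28 minus Ct. Depth of a cell was the number of other assays detected, and no 2 cells shared an identical recorded Ct. The difference of shares was checked on simulated data for Hoxa11 only, with assays of intermediate share. That check did not cover Hoxa10, found in 11 cells, or Hoxa13. No p-value was computed, since all 96 cells are 1 group. The members and gene lists were chosen with earlier results of these data known. Assays were named by hand from their short names, among them er as Esr1, pr as Pgr, p63 as Trp63 and aldh1 as Aldh1a1; sma, h2b and actin keep theirs. The genes named were the 3 Hox genes, the references, Epcam, the measured list members and, per Hox gene, the 5 assays with the highest and the 3 with the lowest difference. Alternatives covered the Ct limit (24, 26 or any), the cells used, the level scale and the depth groups. Python 3.11.15, numpy 2.4.6, pandas 2.3.3, scipy 1.17.1 and matplotlib 3.10.9 were used.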

Additional observations from a re-analysis of the deposited data

How the results depend on the processing

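Alternatives gave 153 values for shares, levels, combinations and counts: 133 kept to the exact interval, 1 SD or 1.5 times, and 20 moved. With a Ct limit of 24 Hoxa11 was at 13.5% of cells and cells with none of the 3 genes were at 54.2%, and with 26 Hoxa11 was at 20.8%. On the scale minus Gapdh the mean levels were -9.58, -10.59 and -8.07 for Hoxa10, Hoxa11 and Hoxa13, which follows from the scale, and with undetected cells at 0 they were 0.74 for Hoxa10 and 2.70 for Hoxa13. Assays passing 20 points for Hoxa11, 7 in the main result, were 24 with a Ct limit of 24, 4 in the cells with Epcam, and 4 to 8 leaving out each cell. For Hoxa13, 2 in the main result, they were 5 with a Ct limit of 24 or 26, 12 with all reference genes, 6 without the 10% of cells with most assays, 1 without low-Gapdh cells, 12 without depth groups, 1 with 5 depth groups, and 1 to 5 leaving out each cell; the cause was not tested. Of 312 values of the named differences, 249 kept their side of 20 points, 32 fell inside it, 30 passed it and 1 reversed, h2b with Hoxa11 at 0.654 in the cells with all reference genes. The 5 depth groups, their absence and leaving out each cell were chosen after the data were seen. With 11 cells, the interval of a share beside Hoxa10 can run from 30.8 to 89.1%. No paired analysis was possible because all cells belong to a single group.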
